A study of Mus musculus with 4 samples.

Results

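Alpha cells are the glucagon-secreting cells of the pancreatic islet. Here they are the cells in which Gcg, the glucagon gene, held at least 3% of all unique molecular identifiers (UMIs, 1 per captured RNA molecule), Ins1 and Ins2 together less than 5% and Sst less than 2%. This took 3178 of 18612 cells from 4 libraries of dissociated islets of C57BL/6 mice, made with a 10x Genomics kit that tags the 3′ end of RNA. The knockout libraries, from Sel1L f/f mice that also carry Cre recombinase driven by the Ins1 gene (Sel1L Ins1), gave 771 and 333 alpha cells, and the wild type libraries, from Sel1L f/f mice without that Cre, gave 1125 and 949. Islets of all groups rested overnight in culture in 11 mM RPMI medium before trypsin treatment, and the mice are given as 7 weeks old in the sample labels and as 5 weeks old in the series text. There was no library with Cre and intact Sel1L, and nothing in the labels ties each library to an animal of its own. The p-values therefore measure the spread between these libraries, which may be technical. SEL1L is the adaptor of the HRD1 ubiquitin ligase in endoplasmic reticulum associated degradation (ERAD), and the study asks what its loss does to beta cells. Ins1 is a beta cell gene, so alpha cells are not the cells in which this Cre is meant to act.

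Glucagon raises blood glucose by acting on the liver, and its release is held back by insulin and by somatostatin from neighbouring cells. Alpha cells hold homeodomain factors of the IRX family, and they cut proglucagon with the convertase PCSK2. Peptide YY and pancreatic polypeptide are related peptides of the same family. Pancreatic polypeptide marks PP cells, ghrelin marks epsilon cells, and peptide YY is made by several islet cell types of the mouse.

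The promoter windows of the hormone genes that share these cells are shown because the results turn on their transcripts. They are RefSeq windows of 300 bases around the start of each gene on the minus strand of GRCm38.p6. Gcg is chr2:62483604-62483903, Pyy is chr11:102107783-102108082 and is 1 of 2 windows listed for that gene, and Ppy is chr11:102101270-102101569, so that Pyy and Ppy are neighbours. Capitals mark CANNTG, the E box bound by basic helix-loop-helix factors, and TAAT read on either strand, a core that homeodomain factors bind.
Gcg: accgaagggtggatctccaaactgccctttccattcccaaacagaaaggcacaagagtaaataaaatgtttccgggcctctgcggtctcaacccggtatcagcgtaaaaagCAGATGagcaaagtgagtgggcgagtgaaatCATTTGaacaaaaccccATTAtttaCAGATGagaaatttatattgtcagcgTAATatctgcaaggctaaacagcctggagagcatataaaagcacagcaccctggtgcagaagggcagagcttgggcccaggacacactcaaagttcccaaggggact
Pyy: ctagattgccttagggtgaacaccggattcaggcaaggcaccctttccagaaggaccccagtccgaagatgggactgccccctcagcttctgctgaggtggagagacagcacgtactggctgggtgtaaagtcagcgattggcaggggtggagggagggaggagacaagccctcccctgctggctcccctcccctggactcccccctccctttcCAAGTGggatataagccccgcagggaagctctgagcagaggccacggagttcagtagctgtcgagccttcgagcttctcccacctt
Ppy: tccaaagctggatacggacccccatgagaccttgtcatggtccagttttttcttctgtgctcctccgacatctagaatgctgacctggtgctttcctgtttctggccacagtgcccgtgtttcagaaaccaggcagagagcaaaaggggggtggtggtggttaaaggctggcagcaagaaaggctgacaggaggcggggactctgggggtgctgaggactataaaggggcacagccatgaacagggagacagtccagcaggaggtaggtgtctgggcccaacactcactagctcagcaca
CANNTG occurred 3 times in the Gcg window, 1 time in the Pyy window and 0 times in the Ppy window, and 72.3% of 32851 promoter windows hold it. TAAT occurred 2 times in the Gcg window and 0 times in the others, and 58.0% of windows hold it. These matches describe letters only.

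Alpha cells were 17.8% and 13.4% of all knockout cells, against 18.9% and 16.2% of all wild type cells. The ranges overlap, and the exact two-sided permutation test gave p = 0.667, where 2 libraries against 2 cannot give less than 0.333. Gcg held 31.6% and 32.3% of the UMIs of the median knockout alpha cell, against 36.7% and 38.4% in wild type. At the 3% limit the nearest cells inside had Gcg shares of 3.06%, 3.89%, 3.01% and 3.03% (knockout 1 and 2, then wild type 1 and 2), and the nearest outside that met the other limits had 2.50%, 2.32%, 2.98% and 2.82%. Only 10 and 9 knockout and 10 and 11 wild type cells had between 1% and 3%, so few cells lie near the limit.

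Knockout alpha cells gave more UMIs. The median cell held 26043 and 26703 UMIs and 4404 and 4590 genes in knockout, against 17698 and 18848 UMIs and 3278 and 3395 genes in wild type. Its mitochondrial share was 3.72% and 3.75% in knockout and 2.47% and 2.47% in wild type. Median UMIs were also higher in delta cells, at 16505 and 18194 in knockout against 11485 and 12545 in wild type, and overlapped in beta cells, at 43934 and 51233 in knockout against 46911 and 49887 in wild type. The alpha sums used below held 22793474 and 9568042 UMIs in knockout and 21861434 and 19090999 in wild type. Library pairs shared 1 to 9 cell barcodes. The part that these differences in depth and mitochondrial share play in the results below was not tested beyond the fit on thinned sums.

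The label of alpha cells fitted their markers. Ttr, the transthyretin gene, had 8944 and 9282 UMIs scaled to a common total (CPM) in knockout alpha cells and 10942 and 12249 CPM in wild type, against averages over the libraries of 166.7 CPM in beta and 60.97 CPM in delta cells. Irx2 had 88.4 and 87.1 CPM in knockout and 87.4 and 94.1 CPM in wild type, against 0.96 and 6.82 CPM in beta and delta cells. Gpx3, a secreted glutathione peroxidase, was high in alpha cells, at 800.9 and 780.8 CPM in knockout and 709.9 and 667.6 CPM in wild type, but delta cells also held 435.3 and 481.4 CPM in knockout and 469.9 and 438.5 CPM in wild type. Gpx3 therefore set alpha cells apart from beta cells more than from delta cells. Since the cells were chosen by this contrast, these levels are a description with no test.

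**Figure D1:**
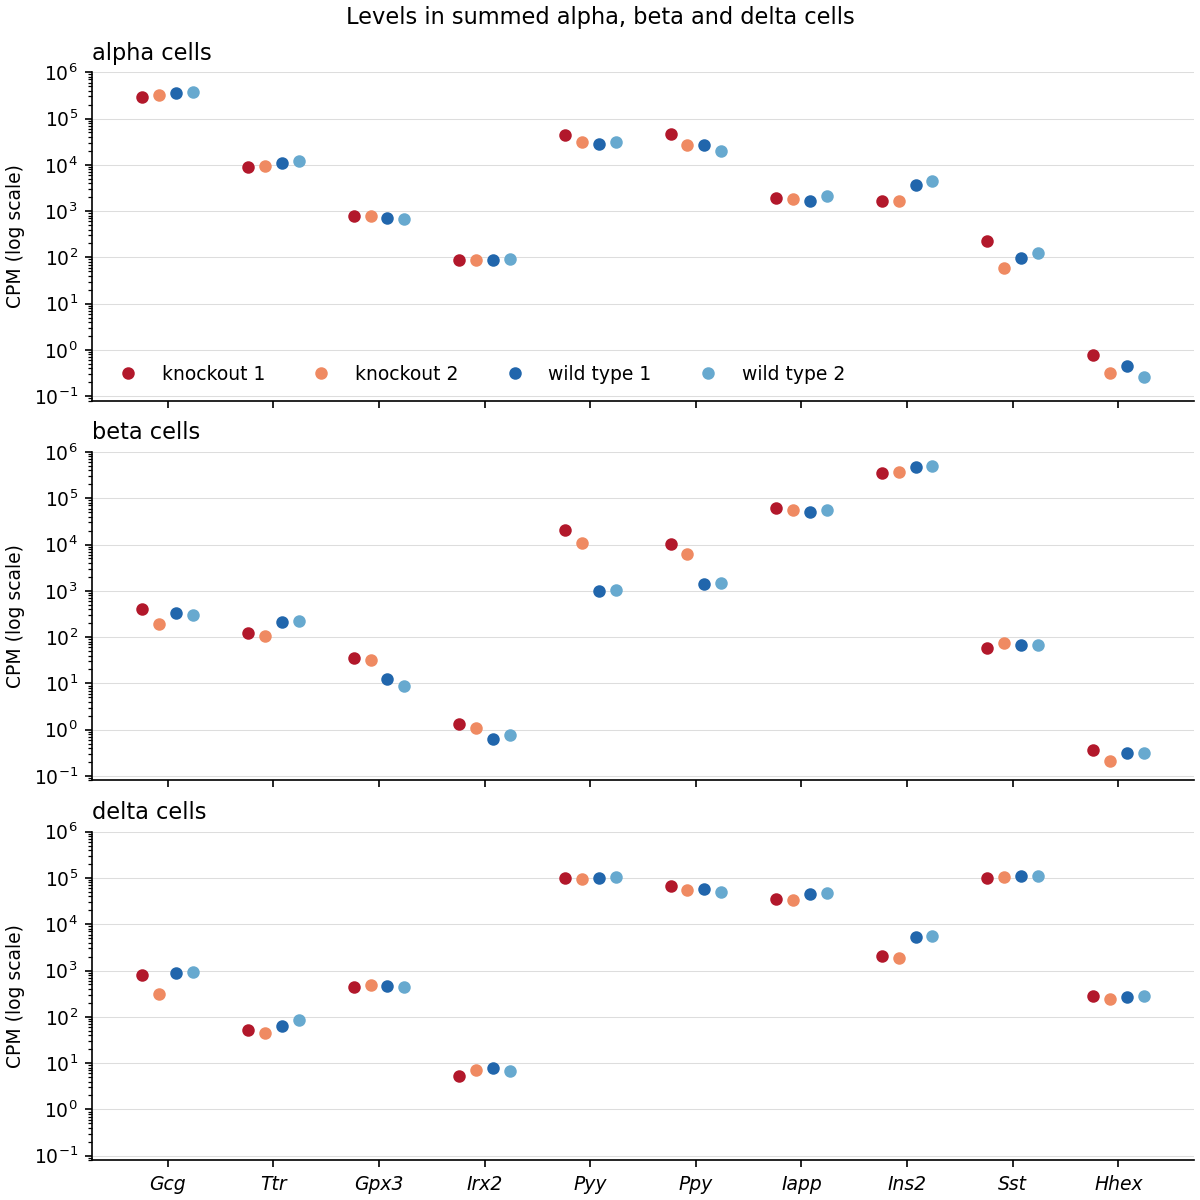
Level of 10 genes in CPM (log scale) in the summed alpha, beta and delta cells of each library, 1 point per library. Irx2 and Ttr are high in alpha cells of all 4 libraries, Gpx3 is high in alpha and delta cells, and Pyy and Ppy are in alpha and delta cells of all libraries.

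Of 3919 genes with at least 20 CPM in alpha cells, 38 (0.970%) were at least 4-fold higher than in both beta and delta cells in every library. They include 8 of the 15 alpha markers, among them Gcg, Ttr, Irx1, Irx2, Slc7a2 and Cryba2. Among genes over 100 CPM, Higd1a, a mitochondrial protein of the respiratory chain, was the next after Gcg. Higd1a had 320.4 and 354.4 CPM in knockout and 377.3 and 379.1 CPM in wild type alpha cells, and its smallest excess over both other classes was 117.3-fold. The smallest excess was 50.7-fold for Ttr and 21.4-fold for Pappa2, a protease of insulin-like growth factor binding proteins. It was 7.53-fold for Sfrp5, a secreted inhibitor of Wnt ligands, and 7.49-fold for the kinase gene Wnk3. It was 6.10-fold for Slc7a2, a transporter of cationic amino acids, and 5.06-fold for Ugt2b34, a glucuronosyltransferase gene. Tmsb15b1 and Tmsb15b2, thymosin genes, had smallest excesses of 10.7-fold and 5.40-fold, and as near copies their reads may be split between them. At the other end, Hhex, the homeodomain factor of delta cells, had 0.79 and 0.31 CPM in knockout and 0.46 and 0.26 CPM in wild type alpha cells, against 284.6 and 246.7 CPM in knockout and 266.2 and 278.0 CPM in wild type delta cells. Cd24a, a surface protein gene, had 0.47 to 1.8 CPM in alpha cells of the 4 libraries and 411.3 to 427.1 CPM in delta cells. Ly6h and Fam159b were likewise low in alpha cells, at 0.18 to 0.35 CPM and 3.61 to 7.20 CPM.

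Insulin transcripts in alpha cells stood at a similar small fraction in all libraries of those in beta cells. An average alpha cell held 9.41 and 9.73 Ins1 UMIs in knockout and 25.3 and 28.6 in wild type. Ins1 and Ins2 together came to 0.312% and 0.245% of the amount per beta cell in knockout and 0.298% and 0.333% in wild type. Endothelial cells and macrophages of the same libraries do not make insulin. They held 0.195% and 0.109% of the beta cell amount of Ins1 in knockout and 0.181% and 0.186% in wild type. For Ins1 alone, alpha cells held more in every library, 0.359% and 0.275% in knockout and 0.267% and 0.293% in wild type. The alpha cell fraction of Ins1 and Ins2 together was then applied to all beta cell RNA. If that fraction reached every alpha cell, it would come to as much as 121% of Mafa, the beta cell factor, in a library. Ins1 and Ins2 served to choose the cells and set this fraction, so no statement on the genotypes is drawn from Ins1, Ins2 or Mafa.

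Other cell types left few transcripts. Endothelial markers summed to 33.5 and 41.8 CPM in knockout and 29.3 and 26.1 CPM in wild type alpha cells, macrophage markers to 96.7 and 138.6 CPM against 86.3 and 32.7 CPM, mesenchymal markers to 33.5 and 33.0 CPM against 27.8 and 55.9 CPM, and Schwann markers to 32.7 and 56.1 CPM against 26.8 and 18.5 CPM. Of these 4 lists all 8 markers each were found, and none was at 0 in all libraries. Acinar markers summed to at most 1.62 CPM, with 2 of 8 at 0, and T and B cell markers to at most 1.05 CPM over 3 markers in the files. Ductal markers summed to 473.2 to 495.7 CPM, with 1 of 8 at 0.

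Most alpha cells also held Pyy transcripts. The median share of Pyy was 3.14% and 2.04% of UMIs in knockout alpha cells, against 1.68% and 1.76% in wild type. Pyy reached at least 0.5% of UMIs in 94.4% and 88.3% of knockout alpha cells and in 79.0% and 80.9% of wild type alpha cells. Both knockout libraries lay above both wild type libraries, by 11.4 percentage points on average (means 91.4% ± 4.34 and 80.0% ± 1.35, SD, n = 2), and the exact two-sided permutation test gave its lowest possible p of 0.333. In endothelial cells and macrophages the same share was 1.14% and 0.84% in knockout and 0% and 0.34% in wild type, which is far below the alpha cells. Nearly all delta cells reached it, at 99.7% and 99.1% in knockout and 99.8% and 99.8% in wild type. With cells thinned to 2000 UMIs, 99.6% and 98.2% of knockout and 97.0% and 98.0% of wild type alpha cells had a Pyy UMI. Both knockout libraries still lay above both wild type libraries there, with the shares much closer together. At a cut of 10% of UMIs the genotypes overlapped, with 7.52% and 3.60% of knockout and 3.38% and 4.53% of wild type alpha cells.

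Ppy was in fewer alpha cells and spread more widely. The median share was 0.591% and 0.183% in knockout alpha cells and 0.131% and 0.0765% in wild type. Ppy reached at least 0.5% in 52.9% and 37.8% of knockout alpha cells and in 34.5% and 26.9% of wild type, with p = 0.333 in the same exact permutation test (n = 2 per genotype), again the lowest it can give. Endothelial cells and macrophages reached it in 3.04% and 0.84% in knockout and 0.67% and 1.37% in wild type. At least 10% of UMIs came from Ppy in 10.6% and 6.01% of knockout alpha cells and in 5.96% and 4.0% of wild type. The knockout 2 and wild type 1 libraries differ little on this measure. Ppy cells were nearly all Pyy cells: of the alpha cells with Ppy at 0.5% or more, 404 of 408 and 123 of 126 in knockout and 375 of 388 and 248 of 255 in wild type also held Pyy at 0.5% or more. Of alpha cells below that Ppy level, 324 of 363 and 171 of 207 in knockout and 514 of 737 and 520 of 694 in wild type did.

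**Figure D2:**
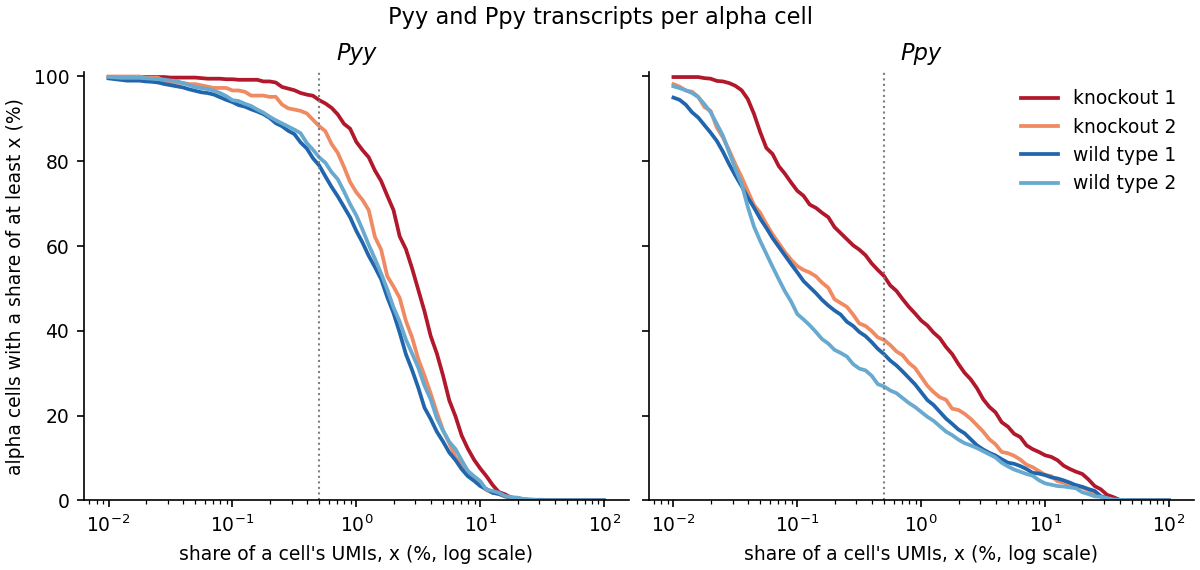
Share of alpha cells (vertical axis, %) whose Pyy (left) or Ppy (right) share of UMIs is at least the value on the horizontal axis (%, log scale), 1 line per library, with a dotted line at 0.5%. At 0.5% the Pyy lines stand at 94.4% and 88.3% in knockout and 79.0% and 80.9% in wild type, and the Ppy line of knockout 1 lies apart from the other libraries.

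Ghrl, the ghrelin gene, was nearly absent. It had 13 and 29 UMIs in all knockout alpha cells and 51 and 9 in all wild type alpha cells. In wild type 1, 41 of the 51 UMIs lay in 1 cell, where Ghrl was 0.209% of UMIs. No alpha cell reached 0.5%, which allows a share of such cells of up to 0.389% and 0.901% in knockout and 0.267% and 0.316% in wild type, by counting error only. In knockout 2, 8.41% of alpha cells held a Ghrl UMI, against 2.53% of its endothelial cells and macrophages, 6.67% of its beta cells and 1.04% of the alpha cells of knockout 1, and the other libraries had 0.978% and 0.948%.

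The cells richest in Ppy differed in other alpha genes. Where Ppy was at least 10% of UMIs, the median Gcg share was 14.5% and 15.5% in knockout (82 and 20 cells) and 18.4% and 17.7% in wild type (67 and 38 cells). Where Ppy was below 0.5%, it was 33.8% and 33.7% in knockout and 38.0% and 39.5% in wild type. With Gcg, Ppy and Pyy taken out of the total, Ttr stood at 8313 and 6579 CPM in the Ppy-rich cells of the knockout libraries and 13378 and 10573 CPM in those of wild type. In the cells low in Ppy it stood at 19217 and 17781 CPM in knockout and 20761 and 24417 CPM in wild type, so that the Ppy-rich cells were lower in all 4 libraries. Irx2 on the same scale had 102.6 and 105.4 CPM in the Ppy-rich cells of knockout and 127.2 and 136.7 CPM in those of wild type, against 154.7 and 148.8 CPM in knockout and 148.2 and 170.7 CPM in wild type in the cells low in Ppy. These Ppy-rich cells had 33417 and 47606 median UMIs in knockout and 22679 and 23420 in wild type, above the alpha median, and 2, 0, 1 and 1 of them were among the highest doublet scores. Whether single cells or pairs gave these profiles was not tested further. Across genes, in cells thinned to 5000 UMIs, the ratio of variance to mean was largest for Ppy, Pyy, Gcg and Ttr. At a given relative spread this ratio grows with the mean, so it favours abundant genes. Gcg, which also served to choose the cells, had library means of 1510 to 1886 UMIs per thinned cell. The variance of Ppy was at least 606.2 times its mean, that of Pyy 154.8 times, that of Gcg 99.8 times and that of Ttr 42.5 times, against a median of 0.989 over 2028 genes. Malat1, Iapp, Spp1, Gnas, Ins2, Gm42418, Chga and Pcsk1n came next, with ratios of at least 3.29.

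Of 12931 genes tested between knockout and wild type alpha cells, 1895 (14.7%) were called at an adjusted p under 0.05 (edgeR quasi-likelihood test, Benjamini-Hochberg), 744 higher (5.75%) and 1151 lower (8.90%). The counts of genes called include Ins1 and Ins2, which served to choose the cells and were called lower. Values are log2 changes relative to the other genes, by TMM scaling. CPM run higher by 0.23 (log2) in knockout at the median gene, beside a lower Gcg share there, and UMIs per cell run higher by 0.79. With sums scaled by cell number, 1092 of the called genes changed direction, and all 1092 are genes called lower here. A fall below therefore means a fall relative to other genes. Where the change per cell has the other sign, its value or the number of such genes is given. Sel1l itself had 26.1 and 27.5 CPM in knockout and 17.7 and 19.4 CPM in wild type alpha cells, a log2 change of 0.31 (SE 0.09, adjusted p = 0.0434, edgeR) that was not called without knockout 1, knockout 2 or wild type 1 (adjusted p up to 0.202) or by DESeq2 (0.207). Reads at the 3′ end cannot show whether the floxed part is lost, so Sel1l does not check the genotype. Pyy and Ppy were not called: Pyy had 44547 and 31101 CPM in knockout against 28786 and 30544 CPM in wild type (log2 change 0.13, SE 0.18, adjusted p = 0.664), and Ppy had 45275 and 26905 CPM against 26375 and 19521 CPM (0.44, SE 0.24, adjusted p = 0.239).

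Of the 15 alpha markers, 0 rose and 3 fell, where 5.75% and 8.90% of all genes did. Their median log2 change was -0.23, against 0.01 for all genes tested. Gcg, which served to choose the cells, is counted among the 15. Ttr fell by 0.57 (SE 0.11, adjusted p = 0.0118), with the values given above not overlapping. Cryba2, a crystallin gene, had 297.4 and 345.9 CPM in knockout against 385.9 and 385.7 CPM in wild type and fell by 0.49 (SE 0.08, adjusted p = 0.00769). Irx2 fell by 0.27 (SE 0.07, adjusted p = 0.0357), but its CPM overlap between groups, and the call was lost without knockout 1, knockout 2 or wild type 2 (adjusted p up to 0.178). Gpx3 (log2 change -0.02) was not called. By number of UMIs per cell all 3 genes that fell have positive changes, 0.21 for Ttr, 0.29 for Cryba2 and 0.51 for Irx2. Of 24 islet transcription factors tested, 0 rose and 3 fell, Irx2, Mafa and Isl1, where 5.75% and 8.90% of all genes did. Mafa is in this count, but no statement is drawn from it, for the reason given with the insulin transcripts. Isl1, a LIM homeodomain factor of all islet endocrine cells, had 206.9 and 208.4 CPM in knockout and 224.8 and 219.8 CPM in wild type (log2 change -0.32, adjusted p = 0.0147), and lost its call without either knockout library (adjusted p up to 0.0871). Per cell its change is 0.46.

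Genes of the integrated stress response fell in knockout alpha cells. This is the program that the factor ATF4 drives when the kinases PERK or GCN2 slow translation. Of 25 genes tested, 13 fell and 2 rose, where 8.90% and 5.75% of all genes did, and the median log2 change was -0.43. In 14 of the 25, both knockout libraries were below both wild type libraries, as for 9.81% of all genes tested. Mthfd2, a mitochondrial enzyme of one-carbon metabolism, had 15.3 and 17.2 CPM in knockout and 43.9 and 36.1 CPM in wild type. The 2 groups do not overlap, and Mthfd2 fell by 1.54 (SE 0.11, adjusted p = 0.000191). Eif4ebp1, which holds back cap-dependent translation, had 14.8 and 14.9 CPM against 39.2 and 30.2 CPM and fell by 1.44 (SE 0.12, adjusted p = 0.000467). Asns, asparagine synthetase, had 36.2 and 37.6 CPM against 65.0 and 58.6 CPM and fell by 0.97 (SE 0.08, adjusted p = 0.000362). Serine synthesis followed: Psph had 10.0 and 9.20 CPM in knockout and 20.1 and 17.1 CPM in wild type, and Phgdh had 2.41 and 2.93 CPM against 5.76 and 3.77 CPM. Atf4 itself fell by 0.48 (adjusted p = 0.00721), with 117.2 and 127.2 CPM in knockout against 139.9 and 151.4 CPM in wild type. Chac1, a glutathione-degrading enzyme, fell by 1.61, and Atf3, a stress-induced factor, fell by 1.19.

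The 2 genes of that list that rose were Ddit4 and Nupr1. Ddit4, an inhibitor of mTORC1, had 17.2 and 21.5 CPM in knockout against 11.1 and 11.8 CPM in wild type (log2 change 0.51, SE 0.11, adjusted p = 0.0190). Nupr1, a stress-induced nuclear protein, had 14.6 and 8.78 CPM against 1.51 and 2.04 CPM (2.56, SE 0.28, adjusted p = 0.00206), but up to 66.0% of it in a library would come from beta cells at the insulin fraction. By UMIs per cell, 5 of the 13 genes that fell have positive changes, Atf4 (0.30) and Psat1 (0.21) among them. Without each library in turn, 6 to 10 of the 24 or 25 tested fell and 1 or 2 rose, with medians of -0.54 to -0.41. DESeq2 called 7 lower and 0 higher of 13 with an adjusted p. Mthfd2, Eif4ebp1, Asns and Atf3 kept their calls without each library. On sums thinned to the smallest library 10 of 23 fell and 1 rose, and in the alpha cells with Ppy and Pyy each under 1% of UMIs 10 of 21 fell and 2 rose.

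Aminoacyl-tRNA synthetases, which charge tRNAs and many of which ATF4 is known to induce, fell with them. This list was added after the values of single members had been seen. Of 20 cytosolic synthetases, 10 fell and 1 (Kars) rose, where 8.90% and 5.75% of all genes did, with a median of -0.23. Mars, for methionine, had 12.7 and 13.9 CPM in knockout and 22.1 and 18.7 CPM in wild type and fell by 0.85 (SE 0.11, adjusted p = 0.00365). Cars, for cysteine, had 12.8 and 13.5 CPM against 22.9 and 17.1 CPM and fell by 0.84 (SE 0.13, adjusted p = 0.00778), a call lost without either knockout library (adjusted p up to 0.0650). Not all moved: Dars (log2 change 0.11), Eprs (0.05) and Rars (0.02) were not called. Without 1 library, 3 to 10 of the 20 fell, and by UMIs per cell 8 of the 10 have positive changes. Of 16 amino acid transporters, 3 fell (Slc1a4, Slc3a2 and Slc38a2) and 1 rose (Slc43a2), where 8.90% and 5.75% of all genes did. Slc3a2 lost its call without each library in turn (adjusted p up to 0.127) and Slc43a2 without knockout 1, knockout 2 or wild type 2 (up to 0.151), and per cell 2 of the 3 that fell have positive changes. Slc1a4, which carries neutral amino acids, had 1.14 and 1.46 CPM in knockout and 2.88 and 2.83 CPM in wild type, a fall of 1.39 that was lost without either knockout library.

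Genes of cholesterol synthesis and uptake rose. Of 20 tested, 10 rose and 0 fell, where 5.75% of all genes rose, and the median log2 change was 0.29. All 20 lay higher in CPM in both knockout libraries than in both wild type libraries, but so did 57.0% of all genes tested. Hmgcs1, an early enzyme of the pathway, had 114.9 and 131.8 CPM in knockout and 62.6 and 72.2 CPM in wild type (log2 change 0.64, SE 0.09, adjusted p = 0.00542). Srebf2, the factor that controls these genes, had 54.9 and 66.5 CPM against 41.7 and 33.3 CPM (0.46, SE 0.11, adjusted p = 0.0245). Sqle (0.25), which catalyses a controlled step, was not called. Without 1 library 3 to 10 of the 20 were called higher and 0 lower. RLE scaling called 8, and DESeq2 called 6 of the 20. On thinned sums 9 were called higher, and in the cells with Ppy and Pyy each under 1% of UMIs 13 were. Hmgcs1 kept its call without each library. Lss, lanosterol synthase, had 23.2 and 29.5 CPM in knockout against 13.9 and 14.7 CPM in wild type (0.63, adjusted p = 0.00930), and its adjusted p was 0.0501 without knockout 2.

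**Figure D3:**
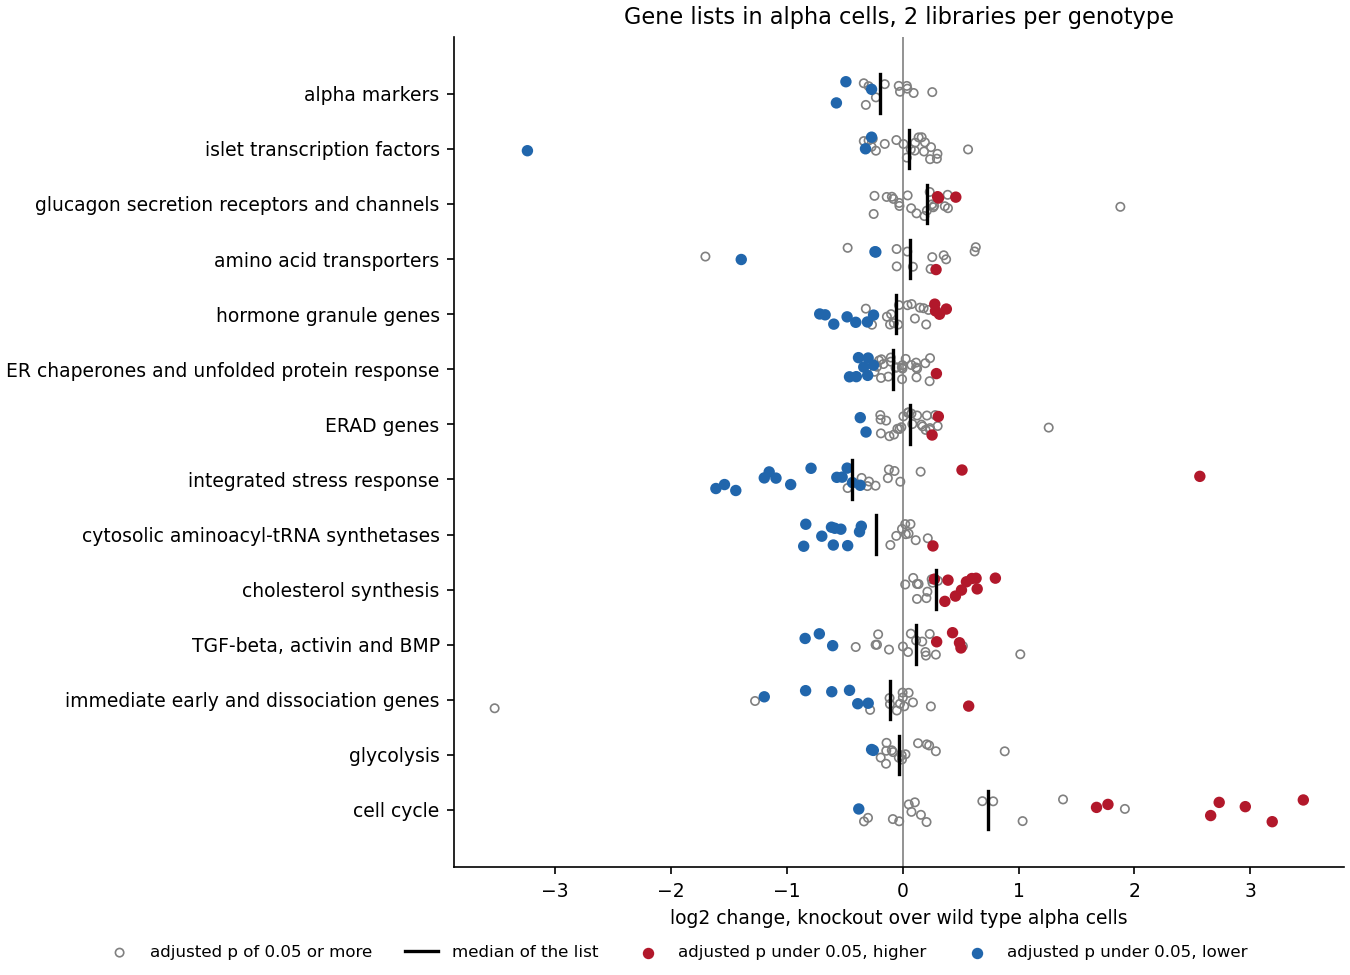
Log2 change of each tested gene of 14 lists in knockout over wild type alpha cells (horizontal axis), 1 point per gene, filled where the adjusted p is under 0.05 (edgeR, 2 libraries per genotype), with a bar at the list median. Gcg, which served to choose the cells, is left out of the alpha markers. Integrated stress response genes lie mostly below 0 (median -0.43), cholesterol genes lie above 0 (median 0.29), and the cell cycle points at the far right rest on 4 knockout cells.

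Of 23 genes of TGF-beta, activin and bone morphogenetic protein (BMP) signalling tested, 3 fell and 4 rose, where 8.90% and 5.75% of all genes did, and 16 were not called. The 3 that fell, Id1, Id2 and Id3, encode inhibitors of basic helix-loop-helix factors and are known BMP targets. Id3 had 347.3 and 347.5 CPM in knockout and 528.1 and 539.1 CPM in wild type, falling by 0.84 (SE 0.07, adjusted p = 0.000467). Id1 had 210.1 and 238.0 CPM against 298.1 and 332.0 CPM and fell by 0.72 (SE 0.08, adjusted p = 0.00267). Id2 had 98.7 and 114.0 CPM against 134.1 and 141.5 CPM and fell by 0.60 (SE 0.07, adjusted p = 0.00365). All 3 kept their calls without each library, while by UMIs per cell Id1 and Id2 have positive changes (0.06 and 0.18) and Id3 has -0.06. Outside the list, Hamp, the hepcidin gene, a BMP target in liver, had 12.1 and 15.6 CPM in knockout and 34.4 and 23.1 CPM in wild type and fell by 1.32 (SE 0.17, adjusted p = 0.00494), with an adjusted p of 0.0555 without knockout 1. The 4 that rose were Bmpr2, a BMP receptor (0.50), Acvr1b, an activin receptor (0.49), and Klf10 (0.43) and Skil (0.29), TGF-beta response genes. Pmepa1, another TGF-beta response gene outside the list, had 22.8 and 27.8 CPM in knockout and 12.9 and 7.44 CPM in wild type (1.06, SE 0.19, adjusted p = 0.0108), and was not called without either knockout library (adjusted p up to 0.0734) or without the cells that hold 4 or more markers of another cell type (0.262).

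Among the largest rises were Sbno2, Socs3 and Fgb. Socs3, the feedback inhibitor of JAK and STAT signals, had 112.5 and 119.0 CPM in knockout and 50.7 and 49.0 CPM in wild type (log2 change 0.99, SE 0.07, adjusted p = 0.000165). Sbno2, a gene that anti-inflammatory cytokines induce in macrophages, had 25.2 and 20.5 CPM against 8.05 and 8.22 CPM (1.30, SE 0.13, adjusted p = 0.00124). Fgb, the fibrinogen beta chain, an acute-phase gene in liver and a fixed PP cell marker here, had 113.4 and 139.7 CPM against 42.0 and 66.1 CPM (log2 change 1.0, SE 0.17, adjusted p = 0.00930), with an adjusted p of 0.0701 without knockout 2. The list of antigen presentation and interferon genes had 24 tested members. Of these, 0 were called higher and 1 (Ifi27) lower, where 5.75% and 8.90% of all genes were. The change of Ifi27 per cell is positive (0.40). Zfp36, which destabilises inflammatory mRNAs, had 160.2 and 164.6 CPM in knockout and 97.6 and 89.8 CPM in wild type (0.57, SE 0.07, adjusted p = 0.00318). It was the only gene called higher of 20 immediate early genes, where 5.75% of all genes were. Of the 20, 6 fell, where 8.90% of all genes did, and 4 of the 6 have positive changes per cell. Dusp1, a MAP kinase phosphatase, had 64.4 and 75.3 CPM in knockout against 90.2 and 91.5 CPM in wild type (log2 change -0.61, adjusted p = 0.00333, and 0.17 per cell).

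Further rises were in Neat1, Rgs4, Tacc2, Shc1 and Dnm3. Neat1, the long RNA that builds paraspeckles, had 45.5 and 45.6 CPM in knockout and 19.7 and 17.0 CPM in wild type (log2 change 1.09, SE 0.09, adjusted p = 0.000419). Rgs4, which shortens signals of G protein coupled receptors, had 178.9 and 221.6 CPM against 93.2 and 71.3 CPM (1.05, SE 0.12, adjusted p = 0.00267). Tacc2, Shc1 and Dnm3 rose by 1.28, 0.86 and 0.83, and in each both knockout libraries lay above both wild type libraries. Gm42418 (1.0) and Lars2 (1.19) also rose, but ribosomal RNA reads are known to gather at such loci, so their counts are uncertain. Among further falls, Cdc42ep3, an effector of the GTPase CDC42, had 15.4 and 16.1 CPM in knockout and 35.8 and 39.7 CPM in wild type (-1.48, SE 0.09, adjusted p = 0.000119). Aard, an alpha-enriched gene, had 31.9 and 33.4 CPM against 51.0 and 48.2 CPM (-0.83, SE 0.07, adjusted p = 0.000585). Rpl29 fell by 1.42 with 442.6 and 187.4 CPM in knockout, far apart, against 737.4 and 728.5 CPM in wild type; DESeq2 did not call it (0.0961), and near-identical copies of this ribosomal protein gene make its counts uncertain.

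Of 26 hormone granule genes, 7 fell and 4 rose, where 8.90% and 5.75% of all genes did. Resp18, a regulated endocrine granule protein, had 3151 and 3308 CPM in knockout and 4372 and 4709 CPM in wild type and fell by 0.72 (SE 0.09, adjusted p = 0.00481). Pcsk1n, the inhibitor of the convertase PCSK1, had 3463 and 3344 CPM against 4309 and 4497 CPM and fell by 0.59 (SE 0.09, adjusted p = 0.00778). Scg5, the chaperone of PCSK2, had 1241 and 1240 CPM against 1455 and 1508 CPM and fell by 0.48 (SE 0.08, adjusted p = 0.00894). These 3 kept their calls without each library, and by UMIs per cell all 7 that fell have positive changes. Pcsk2 itself was not called (-0.32, adjusted p = 0.0543). The 4 that rose were Rph3al (0.38), Syt13 (0.32), Syt7 (0.28) and Ptprn (0.28), which act at or on secretory granules. Of 23 receptors and channels of glucagon release tested, 3 rose and 0 fell, where 5.75% and 8.90% of all genes did, Sstr3 and Kcnj11 among those that rose. Sstr3, a somatostatin receptor, had 20.5 and 20.2 CPM in knockout and 12.3 and 13.3 CPM in wild type (0.46, adjusted p = 0.0157). Kcnj11, a potassium channel, had a log2 change of 0.30. Both lost their calls without at least 3 of the libraries in turn (adjusted p up to 0.162) and by DESeq2.

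Of 32 chaperone and unfolded protein response genes of the endoplasmic reticulum, 7 fell and 1 (Sec61a1) rose in alpha cells, where 8.90% and 5.75% of all genes did. Spcs1, a signal peptidase subunit, had 136.0 and 151.5 CPM in knockout and 170.4 and 167.1 CPM in wild type and fell by 0.46 (SE 0.07, adjusted p = 0.00628). Cnpy2 fell by 0.40 and Sec61b, a translocon subunit, by 0.34. Per cell all 7 have positive changes, 0.32 for Spcs1, 0.38 for Cnpy2 and 0.45 for Sec61b among them. Hspa5, the chaperone BiP, had 341.8 and 383.7 CPM against 312.6 and 352.8 CPM and was not called (log2 change -0.10, adjusted p = 0.443). Of 28 ERAD genes, 2 rose (Sel1l and Vcp) and 2 fell (Ubxn6 and Ube2j2), where 5.75% and 8.90% of all genes did. Per cell the changes of Ubxn6 (0.47) and Ube2j2 (0.41) are positive. Vcp lost its call without each library in turn, and Ubxn6 and Ube2j2 without knockout 1, knockout 2 or wild type 2. In glycolysis 2 of 17 fell, Aldoa (-0.25) and Pgam1 (-0.27), and 0 rose, where 8.90% and 5.75% of all genes did. Their changes per cell are 0.53 and 0.51. Aldoa lost its call without each library in turn, and Pgam1 without knockout 1, knockout 2 or wild type 2.

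The rise of cell cycle genes lay in a few cells. Of 22 tested, 7 were called higher and 1 (Hmgb2) lower, where 5.75% and 8.90% of all genes were. The change of Hmgb2 per cell is positive. Top2a had 92 and 62 UMIs in knockout and 15 and 13 in wild type, and 82 and 61 of the knockout UMIs lay in 2 and 2 cells with at least 3 of 6 cycle genes. Wild type held 1 and 0 such cells. Without those 5 cells, 0 of 16 tested genes were called higher and 1 lower, and the log2 change of Top2a turned to -1.08 (adjusted p = 0.242). Schwann cell markers behaved alike: Sox10 had 25 and 21 UMIs in knockout against 6 and 4 in wild type, of which 24 and 21 in knockout lay in the 8 and 3 cells that held at least 4 Schwann markers. Npy, a beta marker called lower, had 28.2 CPM in wild type 1 and 0.52 to 0.66 CPM elsewhere, so 1 library decides it. The only progenitor gene called of 15 was Neurog3, higher at 1.01 and 0.52 CPM in knockout against 0.18 and 0 CPM in wild type, a matter of few counts.

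The genotype difference in alpha cells was not that of beta cells. Beta cells, with insulin at 10% or more of UMIs, had 6087 of 15160 genes called (40.2%), 19.7% higher and 20.4% lower, and delta cells, with Sst at 3% or more, had 784 of 11722 (6.69%), 2.46% higher and 4.23% lower. A test of the difference between the alpha and beta effects, with the library as a block, called 3421 of 14929 genes (22.9%), with 11.4% where the alpha effect was higher and 11.5% where it was lower. With library size only, the median of this difference moves to -0.66, beside insulin shares of 40.7% and 44.5% of beta cell UMIs in knockout and 67.6% and 68.1% in wild type. Directions are therefore given relative to the median gene. Between alpha and delta effects 10 of 12760 genes were called (0.0784%), 4 where the alpha effect was higher (0.0313%) and 6 where it was lower (0.0470%), and 877 had an unadjusted p under 0.05. The smaller delta sums, 5492646 and 4455582 UMIs in knockout and 5615868 and 7216158 in wild type, limit this test. A p above the threshold does not show that alpha and delta effects are alike.

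Chaperone genes of the endoplasmic reticulum mostly had lower effects in alpha than in beta cells. Of 32, 22 rose in knockout beta cells, where 19.7% of all genes did. In delta cells 0 rose and 14 fell, where 2.46% and 4.23% of all genes did. The alpha effect was lower than the beta effect in 25 and higher in 2, where 11.5% and 11.4% of all genes were. Kdelr3, a receptor that returns chaperones to the ER, had 14.8 and 13.7 CPM in knockout and 11.2 and 13.8 CPM in wild type alpha cells, against 36.8 and 33.7 CPM in knockout and 2.03 and 2.42 CPM in wild type beta cells. Its alpha effect minus beta effect was -3.11 (SE 0.11, adjusted p = 3.63e-08). Sdf2l1, a cofactor of BiP, gave -1.61 (adjusted p = 3.38e-07). Of 28 ERAD genes, 15 had a lower and 3 a higher alpha effect, where 11.5% and 11.4% of all genes did. Sel1l gave 0.80 (SE 0.09, adjusted p = 8.25e-05), which with library size only is 0.13.

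Relative to the other genes of each class, cholesterol genes went opposite ways. In beta cells 0 of 20 rose and 14 fell, where 19.7% and 20.4% of all genes did. In delta cells 4 rose and 0 fell, where 2.46% and 4.23% did. The alpha effect was higher than the beta effect in 19 of 20, where 11.4% of all genes were. Of the 19, 13 keep that sign with library size only. All changes in this paragraph are by TMM scaling. Beside the insulin shares given above, a beta fall does not show lower CPM or fewer UMIs per cell. For Hmgcs1 the log2 change was 0.64 in alpha cells, -0.48 in beta cells and 1.06 in delta cells. The integrated stress response list had 13 lower and 9 higher of the genes tested in beta cells, where 20.4% and 19.7% of all genes were. In delta cells 13 of 24 were lower and 0 higher, where 4.23% and 2.46% of all genes were. Relative to other genes, Mthfd2 had a log2 change of -1.54 in alpha, -0.70 in beta and -0.88 in delta cells, and Eif4ebp1 had -1.44, -0.62 and -1.45. The limit on beta falls holds for both genes. Id3 fell in alpha (-0.84) and delta cells (-1.53) and was not called in beta cells (-0.24). These classes come from the same 4 libraries, so what moves a whole library moves all of them.

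**Figure D4:**
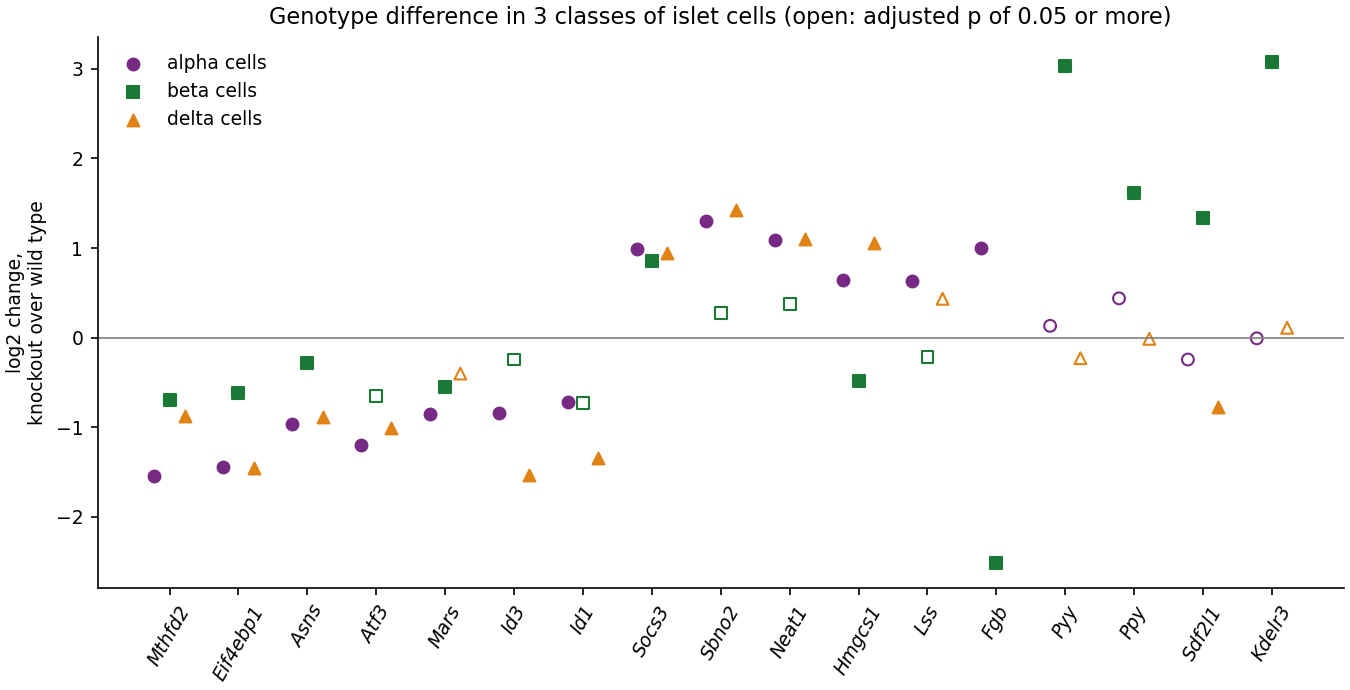
Log2 change of 17 genes in knockout over wild type (vertical axis) in alpha (circles), beta (squares) and delta cells (triangles), filled where the adjusted p is under 0.05 (edgeR, 2 libraries per genotype). Mthfd2, Eif4ebp1 and Asns lie below 0 in all 3 classes, Hmgcs1 lies above 0 in alpha and delta and below 0 in beta cells, and Pyy, Ppy, Sdf2l1 and Kdelr3 are called higher in beta cells only among the 3. Changes are relative to other genes by TMM scaling, so beta points below 0 do not show lower CPM.

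For the hormones, the alpha effect minus the beta effect was -2.87 for Pyy (SE 0.15, adjusted p = 4.20e-07) and -1.19 for Ppy (SE 0.17, adjusted p = 0.000382). The share of beta cells with Pyy at 0.5% or more was 67.1% and 40.7% in knockout and 4.42% and 3.96% in wild type, and for Ppy it was 39.5% and 28.2% against 2.94% and 2.01%. The alpha cell shares given above were closer together between the genotypes. Fgb rose in alpha cells (1.0) and fell in beta cells (-2.51), where it had 0.27 and 0.28 CPM in knockout and 1.0 and 0.69 CPM in wild type, and the difference was 3.50 (adjusted p = 3.70e-05). Tfrc, the transferrin receptor, had 26.4 and 35.4 CPM in knockout and 23.4 and 21.7 CPM in wild type alpha cells and was not called (0.20), while its difference from the beta effect was 2.02. Maob, monoamine oxidase B, gave 1.89, with 69.8 and 79.8 CPM in knockout and 68.8 and 57.9 CPM in wild type alpha cells. Txnip, the thioredoxin-binding protein that glucose induces in beta cells, had 140.6 and 147.8 CPM against 148.3 and 144.0 CPM in alpha cells, and its difference from the beta effect was -2.0 (adjusted p = 1.05e-07).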

How the data were processed

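Per the submitters' processing notes, the tools were Cell Ranger 3.0.0 and Seurat 2.3.4 with the mm10 genome, with no role or order given; the deposited tables hold a raw UMI count per gene (19074 genes) and cell, made by the authors, and 0 value columns were unused. Cells were classed by their hormone shares alone, with no clustering and no removal of doublets in the fits given as results; Scrublet (scanpy 1.11.5, 0.8% of cells per 1000) was an alternative. UMI counts of the alpha cells were summed per library and tested with edgeR 4.0.16 in R 4.3.3 (TMM, filterByExpr, glmQLFit and glmQLFTest, no block, Benjamini-Hochberg adjusted p under 0.05); beta and delta sums were fitted alike. Differences between classes were tested in 1 fit with the library as a block. Every adjusted p given is from edgeR unless DESeq2 is named, with 2 libraries per genotype. Gcg, Ins1, Ins2 and Sst chose the cells. They were not left out of the fits, but no test of them is reported.

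Comparisons of thinned shares used 2000 UMIs per cell, and gene variability 5000 UMIs and a mean of at least 0.2 UMIs. Shares of single libraries with 0 cells are given with the limit that 3 counts allow, which covers counting error only. Alternatives were DESeq2 1.42.0, limma-voom (limma 3.58.1), RLE scaling, library size only, cell number, filters, thinned sums, other limits on the hormone shares, the replicate number as a block and each library left out. Leaving out cycling cells, and cells with 4 or more markers of another type, was added after seeing the data.

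Genes were named by rule: alpha markers and hormones; the 12 strongest called changes in each direction among genes whose libraries do not overlap and whose higher group reached 20 CPM; up to 3 called members of each list; the 6 lowest p each way for alpha minus beta and 4 for alpha minus delta effects; the alpha-enriched and most variable genes. Other list members given as examples were chosen after their values were seen. The cells, genes and lists were chosen with earlier results of these data known. Some genes are not reported here. Symbols of 18834 genes matched GENCODE. Same-numbered libraries did not deviate together (correlation -0.02 across 4430 genes). With 2 libraries per genotype this gives no sign that the numbers pair them but cannot exclude it.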

Additional observations from a re-analysis of the deposited data

Results flagged for a closer look

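These genes are given because the knockout effect differed between alpha cells and another class in a direct test (edgeR quasi-likelihood test, adjusted p under 0.05, 2 libraries per genotype). Values are the alpha effect minus the other effect, on the log2 scale. The direction of each was the same with library size only. Their cause was not tested.

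Against beta cells, the effect in alpha cells was higher for T2 by 3.71, Adam32 by 3.79, Fgb by 3.50, Vps8 by 2.74, Tfrc by 2.02, Maob by 1.89, Gng12 by 1.66, Hmgcs1 by 1.12 and Sel1l by 0.80. It was lower for Igfbp5 (-4.90), Kdelr3 (-3.11), Pyy (-2.87), Nup133 (-2.68), Car8 (-2.31), Txnip (-2.0), Sdf2l1 (-1.61) and Ppy (-1.19). T2, Adam32, Vps8, Tfrc, Maob, Kdelr3, Pyy, Nup133, Car8, Sdf2l1 and Ppy were not called in alpha cells themselves. Gng12 and Txnip were called there but lost their calls without each library in turn. Gng12 also lost its call by DESeq2 and with RLE scaling. Igfbp5, a binding protein of insulin-like growth factors, had 2.68 and 4.39 CPM in knockout and 9.06 and 10.8 CPM in wild type alpha cells. Without the cells that hold 4 or more markers of another cell type, its alpha change turned to 0.089 (adjusted p = 0.847).

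Against delta cells, the effect in alpha cells was higher for Nupr1 (2.59), Cd44 (1.61), Gpx2 (0.98) and Fkbp11 (0.86), and lower for Ccl2 (-8.45), Igfbp5 (-1.95), AY036118 (-1.12) and Gm42418 (-0.88). Cd44, a hyaluronan receptor, had 6.84 and 6.90 CPM in knockout against 2.15 and 1.26 CPM in wild type alpha cells. Its alpha call was lost without those cells (log2 change 1.05, adjusted p = 0.123), in cells with Ppy and Pyy each under 1% of UMIs (0.68, adjusted p = 0.365) and without knockout 1 (adjusted p = 0.0509). Ccl2, a chemokine, had 1.49 and 0.52 CPM in knockout and 11.8 and 0 CPM in wild type alpha cells, so 1 wild type library carries it. Nupr1 also had up to 66.0% of its alpha level at the insulin fraction of beta cell RNA. AY036118 and Gm42418 gather ribosomal RNA reads, which makes their counts uncertain.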

How the results depend on the processing

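The number of genes called between knockout and wild type alpha cells (1895) came to 3540 with library size only, 11197 with sums scaled by cell number, 897 by DESeq2, which gave an adjusted p to 6162 of 12931 genes (14.6% of them called), and 597 in cells with Ppy and Pyy each under 1% of UMIs, where fewer cells remain, and to 204 to 1221 without each library in turn (204 without knockout 2). The split of calls also moved: 744 of 1895 were higher by TMM and 3364 of 3540 with library size only. With the replicate block 2287 genes were called, and whether the numbers pair the libraries is not known. For alpha minus beta effects library size only called 9282, and for alpha minus delta effects 11 to 60 were called without each library (48 without knockout 1, 60 without knockout 2). The alpha share difference of -1.98 percentage points ranged from -4.16 to 0.20 without each library, turning positive without knockout 2. An 8-fold limit left 19 alpha-enriched genes. Top2a reversed to -1.08 without cycling cells, and Igfbp5 to 0.089 without cells that hold 4 or more markers of another type. Over 100 named genes and 2239 alternative values, 2042 kept direction and side of the threshold, 150 lost the call, 45 gained it and 2 reversed, with library size and cell number scaling read relative to the median gene. On the absolute cell number scale 1092 of all genes called lower turned positive. Of 68 named genes called, 36 kept the call without each library and 8 kept it in none of those fits. The knockout sums hold 333 cells in the smaller library, which limits rare transcripts.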
